A study of Mus musculus with 12 samples.

Results

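The genes described here build the COPII and COPI vesicle coats, which carry proteins between the endoplasmic reticulum (ER) and the Golgi, and comprise 40 of the 31053 genes listed for nuclei of mouse lung. They were chosen by name and function, not by their values, but with earlier results of these data known. They are 3 genes of the COPII GTPase and its activator, 6 of the COPII inner coat, 3 of its outer coat, 4 ER exit site organisers, 9 subunits of the COPI coatomer, 5 ARF GTPases and ArfGAPs, 3 KDEL receptors and 7 cargo receptors. All 40 symbols were found once in the files. The data are single-nucleus RNA sequencing of frozen lungs from 12 C57BL/6J mice in 4 groups of 3, each mouse giving 1 library. At 7 weeks of age, PBS or 1.2 U/kg of bleomycin, which damages lung epithelium and is followed by fibrosis, was put into the trachea. From day 5 the mice were given NVP-BHG712, a compound that blocks the kinase of the receptor EphB4, or vehicle (N-methyl-2-pyrrolidone with polyethylene glycol) by mouth daily for 5 days, and lungs were taken at day 14. The groups are called PBS vehicle, PBS NVP, Bleo vehicle and Bleo NVP. All mice were wild type, the sex is not given by the labels, and the inhibitor reached the whole animal and not fibroblasts alone. Nuclei were sorted by DAPI only, so every cell type of the lung could enter. The study asked what EphB4 does in lung fibroblasts and fibrosis, with protein transport among the functions it looked at, and the comparisons ask whether these genes change in lung nuclei with bleomycin and with the inhibitor.

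COPII coats assemble at ER exit sites. The GTPase SAR1, loaded by its exchange factor PREB (Sec12), recruits SEC23 and SEC24, the latter of which picks cargo, and the SEC13 and SEC31 cage then shapes the vesicle. SEC16, TFG and TANGO1 (gene Mia3) organise the exit site, and TANGO1 is needed to load procollagen, which is too long for an ordinary vesicle. COPI, a coatomer recruited by ARF GTPases and released with the help of ArfGAPs, returns escaped ER proteins and receptors from the Golgi, and KDEL receptors catch soluble ER chaperones for that return. Fibroblasts, which secrete collagen and elastin, place a heavy load on this pathway.

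Of 49163 barcodes, 44611 nuclei were kept, and 9928 of them were fibroblasts. The 8 marker genes fixed for the fibroblast class were all detected and were 4.09 to 24.0 times higher in these nuclei than in the next class, although Lum stood at 1.09 UPM (UMIs per 1000000 UMIs of the class, where a UMI, or unique molecular identifier, marks 1 captured RNA molecule). That next class was venous endothelial, alveolar type II or general capillary for each marker. Values of these markers in pericyte, smooth muscle and mesothelial nuclei are not given here. Fibroblast nuclei gave 883774 UMIs in Bleo vehicle replicate 1 to 9024187 in Bleo vehicle replicate 3, and the members together 2168 to 21055 UMIs per library. The 3 Bleo vehicle libraries carry batch numbers and the others run numbers, and no run or batch holds libraries of bleomycin and PBS mice or of bleomycin mice of both treatments, so that for comparisons with a bleomycin group the batch and the treatment cannot be told apart. Bleo vehicle also stood apart in its RNA: mitochondrial genes gave 5376 to 12940 UPM of its fibroblast sums and at most 413 elsewhere, and ribosomal protein genes 2419 to 2599 against 1354 to 2033.

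The other 9 libraries did not sort by their labels. The spread between fibroblast sums of 2 libraries was 1.60 to 1.85 times the counting noise for 10 pairs and at least 3.12 times for the remaining 56. The 10 close pairs form 3 sets: PBS vehicle 1 with PBS NVP 1 (set A), PBS vehicle 2 with PBS NVP 2 and Bleo NVP 2 (set B), and PBS vehicle 3 with PBS NVP 3, Bleo NVP 1 and Bleo NVP 3 (set C). Of these pairs, 9 join libraries of different groups, and 11 pairs of the same group in different sets lay 3.18 to 7.61 times the counting noise apart. Pairs within a set shared 0 to 10 nucleus barcodes and other pairs 0 to 34 (PBS NVP 1 with Bleo vehicle 3), and 324 of 48838 distinct barcodes occurred in more than 1 library. As a percent of the smaller library's barcodes, the highest was 0.845%, within a set (PBS NVP 3 with Bleo NVP 1). The remaining pairs within a set reached at most 0.169%, and pairs outside the sets at most 0.635% (PBS vehicle 1 with Bleo vehicle 3). Why libraries of different groups resemble each other was not tested. PBS NVP against PBS vehicle and Bleo NVP against PBS NVP, which lie within these 9 libraries, were therefore also fitted with the set as a term. That analysis was added after the sets were seen and is given as counts of members called. Comparisons with Bleo vehicle and the interaction have no such fit. Changes of single members come from fits without the set. The sets were formed from all genes of these sums, members included, so member values by set are a description.

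Members, like genes in general, varied more between the sets than between the groups, which the way the sets were formed favours. Sets and groups are not evenly crossed, so the shares given here overlap and are not parts of a whole. Mia3, for example, had a set share of 85.4% and a group share of 38.7%. Over the 9 libraries the median share of a member's spread lying between sets was 56.0%, against 16.3% between groups (PBS vehicle, PBS NVP and Bleo NVP), and the set share was the larger for 35 of 39 members tested. For all 10515 genes tested the medians were 48.0% and 17.2%, and the set share was the larger for 74.5%. Arf4, an ARF GTPase of the early secretory pathway, had the largest set share, 90.6%: it stood at 139.9 and 139 CPM in set A, at 129, 146 and 149 CPM in set B, and at 204, 197, 189 and 229 CPM in set C (CPM, counts per 1000000 after TMM scaling). All 4 libraries of set C lay above the other 5. Copg2, Mia3, Kdelr3 and Sec24a followed with set shares of 85.5%, 85.4%, 84.01% and 82.997%. The 4 exceptions, with more spread between groups, were Copg1, Copz1, Sar1b and Tmed2. The set share of Copg1 was 3.43% and its group share 68.7%.

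**Figure D1:**
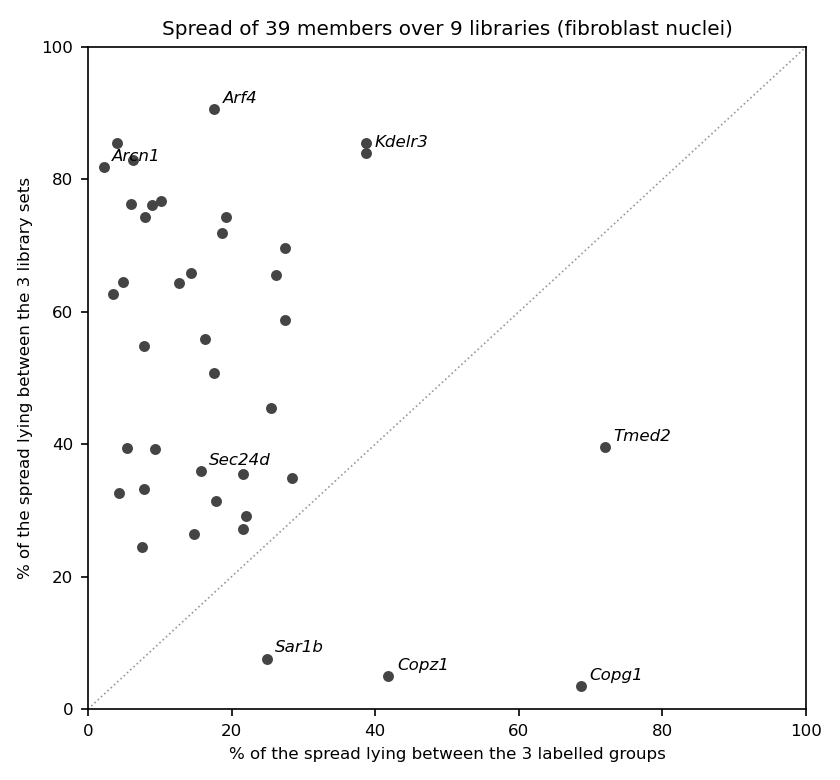
Each point is 1 of 39 members in fibroblast nuclei, with the percent of its spread over 9 libraries that lies between the 3 labelled groups (x axis) and between the 3 library sets (y axis, both in %). 35 points lie above the dotted line of equal shares, Arf4 highest at 90.6% between sets, and Copg1, Copz1, Sar1b and Tmed2 lie below it.

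The members' levels differed widely between cell classes. Levels are given in UPM, as the mean ± SD of 12 libraries, and since the classes were named from markers found in the same nuclei, differences between them are described without a test. Summed over the 40 members, the level was 2690 ± 382 in club cells, 2324 ± 181 in fibroblasts, 2178 ± 162 in alveolar macrophages and 1656 ± 127 in aerocyte capillary cells, the lowest of 9 classes. The order of the first 2 was not the same in every group: the means of club cells were 2214 in Bleo vehicle and 2826 to 2895 in the other groups, against 2316 in Bleo vehicle and 2222 to 2416 for fibroblasts. Club cells, the secretory cells of the airway, had the highest level for 19 members and fibroblasts for 9, while ciliated cells had the lowest for 16. The shallowest library held 26192 UMIs in venous endothelium, 65260 in ciliated cells, 78266 in club cells and 120165 in aerocytes, against 883774 in fibroblasts. Single values of the shallow classes rest on few counts. The part of depth in the ranks was not tested.

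Among the 9 classes described, fibroblasts stood out for particular members. These are the classes, of 17 named, with at least 20 nuclei in every library. Pericyte, smooth muscle and mesothelial nuclei fell below this and were not compared. Sec24d, a cargo-binding COPII subunit that lies at chr3:123267455-123365641 of GRCm38, had 199 ± 21.6 UPM in fibroblasts, 127 ± 37.8 in club cells, 123.4 ± 19.8 in alveolar type I cells and 27.7 ± 8.05 in aerocyte capillary cells. It was highest in fibroblasts in 11 of 12 libraries, and its range of class means, 7.19-fold, was the widest among COPII inner coat members. Sec16b, a paralogue of the exit site scaffold Sec16a, lies at chr1:157506728-157568425 and had 62.99 ± 12.6 UPM in fibroblasts, with means of 0.211 to 4.39 in the 8 other classes compared. Kdelr3, a receptor that returns chaperones to the ER, lies at chr15:79516411-79527739 and had 23.5 ± 5.96 in fibroblasts against 6.93 ± 4.97 in club cells, the next class. Fibroblasts were the highest class for Sec16b and Sec23a in 12 of 12 libraries and for Kdelr3 in 11. Sec23a, partner of Sec24 in the inner coat, stood at 115 ± 12.7 in fibroblasts and 79.3 ± 18.9 in club cells. For Sec31a, Sar1a, Arfgap3, Kdelr1 and Copz2 the fibroblast mean was also the highest, but fibroblasts led in only 2 (Kdelr1) to 8 (Sec31a, Copz2) of 12 libraries.

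The promoters of the 4 genes that led in fibroblasts in at least 11 libraries, Sec24d, Sec16b, Kdelr3 and Sec23a, share the letters TGACGTGG, the core of the unfolded protein response element (UPRE) bound by XBP1 and ATF6. They are shown from 150 bases before to 30 bases after the start site, 5′ to 3′, from RefSeq on GRCm38.p6, with the match to TGACGTGG or its reverse complement CCACGTCA in capitals, and beside them Arf4, which has no match.
Sec24d promoter (chr3:123267346-123267525, plus strand): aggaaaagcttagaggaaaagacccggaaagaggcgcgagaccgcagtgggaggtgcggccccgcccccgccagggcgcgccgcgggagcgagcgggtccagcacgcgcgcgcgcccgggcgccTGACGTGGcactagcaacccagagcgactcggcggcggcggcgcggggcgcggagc
Sec16b promoter (chr1:157506646-157506825, plus strand): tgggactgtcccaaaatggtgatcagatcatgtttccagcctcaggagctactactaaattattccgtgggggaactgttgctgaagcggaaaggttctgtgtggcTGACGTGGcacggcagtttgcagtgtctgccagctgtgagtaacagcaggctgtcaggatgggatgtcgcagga
Kdelr3 promoter (chr15:79516258-79516437, plus strand): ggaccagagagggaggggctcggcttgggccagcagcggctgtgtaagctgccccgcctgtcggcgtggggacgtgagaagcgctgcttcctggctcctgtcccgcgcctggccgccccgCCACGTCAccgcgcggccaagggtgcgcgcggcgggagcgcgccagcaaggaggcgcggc
Sec23a promoter (chr12:59011988-59012167, minus strand): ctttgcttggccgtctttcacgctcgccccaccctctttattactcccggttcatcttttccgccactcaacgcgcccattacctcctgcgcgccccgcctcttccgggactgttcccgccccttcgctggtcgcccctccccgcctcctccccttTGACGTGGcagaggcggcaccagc
Arf4 promoter (chr14:26637984-26638163, plus strand): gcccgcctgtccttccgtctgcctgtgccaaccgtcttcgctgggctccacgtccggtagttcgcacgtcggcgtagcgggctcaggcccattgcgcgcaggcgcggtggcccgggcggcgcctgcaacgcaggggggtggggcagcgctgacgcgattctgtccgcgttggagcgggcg

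The match began 26 bases before the start in Sec24d, 44 before it in Sec16b, 30 before it in Kdelr3 (on the other strand) and 6 bases after it in Sec23a. Of the 40 members 36 had a promoter of 300 bases in the reference table, and TGACGTGG occurred on either strand in 7 of them (19.4%: Arf1, Copb1, Copb2, Kdelr3, Sec16b, Sec23a and Sec24d), against 193 of 27025 genes with promoters of the same length (0.714%), a gene with several promoters counting once in both. Of the 7, 4 were highest in fibroblasts, and of the 29 without a match 5 were. Other motifs were searched on both strands too: the cyclic AMP element TGACGTCA, which shares 6 letters with the UPRE, occurred in 1 member (2.78%, against 2.03% of all genes), the ER stress element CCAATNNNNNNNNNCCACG in 0 (0.137% of all genes), the GC box GGGCGG in 25 (69.4%, against 38.2%) and the CCAAT box in 14 (38.9%, against 41.1%). A match says only that these letters lie in the window.

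Other roles were led by other classes. Arf4 had 226 ± 77.6 UPM in club cells, 158 ± 31.4 in fibroblasts and 66.04 ± 18.3 in ciliated cells. Mia3 was highest in club cells (89.98 ± 35.6) and lowest in alveolar type I cells (35.4 ± 7.06), with 68.9 ± 12.6 in fibroblasts. Copb2, a coatomer subunit, had 33.5 ± 12.9 in club cells, 26.6 ± 4.26 in fibroblasts and 13.6 ± 11.6 in venous endothelium. Kdelr2, Cnih1, an export receptor for transmembrane growth factors, and Preb had their highest means in venous endothelium (35.5 ± 26.8, 14.6 ± 11.4 and 31.6 ± 28.6), where the SDs are large enough to overlap those of most classes. Sec24b was highest in ciliated cells (298 ± 86.8, 143 ± 11.4 in fibroblasts), and Sec24a and Tmed10, a p24 cargo receptor, in alveolar macrophages (269 ± 47.1 and 159 ± 32.5). Per kilobase of gene span, the members of highest level in fibroblasts were Arf5, Arf4, Arcn1 and Copa, at 7.54, 5.92, 4.502 and 4.45 CPM per kb, and the lowest was Sec31b at 0.109.

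**Figure D2:**
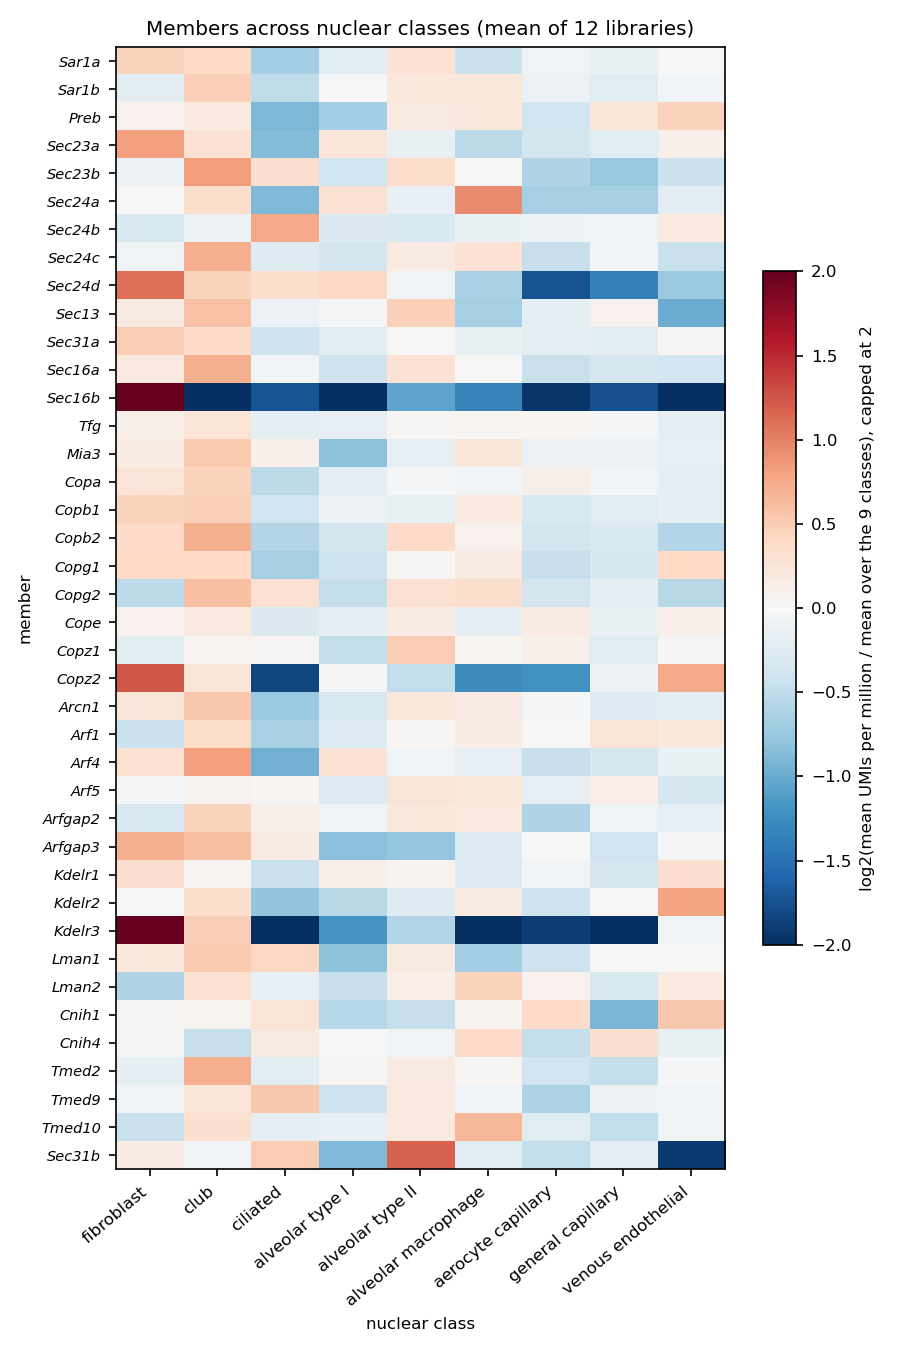
Rows are the 40 members by role (Sec31b last) and columns the 9 nuclear classes, and colour is the log2 of a class mean (UPM, 12 libraries) over the mean of the 9 classes, capped at 2. Sec16b, Kdelr3 and Sec24d are high in fibroblasts, and many members are high in club cells and low in ciliated cells.

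Classes also differed in which paralogue they used. Shares are a member's percent of its family's UMIs, mean ± SD of 12 libraries, and since longer genes give more nuclear UMIs, a share is compared between classes and not between paralogues. Sec24d made up 39.03% ± 1.44 of the Sec24 UMIs in fibroblasts, 26.6% ± 3.41 in alveolar type I cells and 9.21% ± 2.401 in aerocytes. Sec16b made up 51.1% ± 5.89 of the Sec16 UMIs in fibroblasts and at most 6.34% in any of the 8 other classes compared. Kdelr3 made up 34.05% ± 6.396 of the KDEL receptor UMIs in fibroblasts, 13.8% ± 11.8 in club cells and 1.69% ± 2.53 in alveolar macrophages. Copz2, the second form of the coatomer zeta subunit, made up 35.4% ± 3.58 of its pair in fibroblasts and 5.06% ± 5.24 in ciliated cells. Sec23a ranged from 39.4% ± 13.9 of the Sec23 pair in ciliated cells to 72.9% ± 4.12 in fibroblasts, Copg1 from 7.65% ± 3.98 to 22.9% ± 5.91 and Sar1a from 25.4% ± 8.77 in alveolar macrophages to 46.1% ± 6.07 in fibroblasts. Arf4 made up 52.8% ± 9.25 of Arf1, Arf4 and Arf5 in general capillary cells and 71.2% ± 5.49 in fibroblasts, and Sec31a at least 94.5% of its pair in every class. Within fibroblasts, as means over the libraries of a group, Sec24d took 38.1%, 38.7%, 39.4% and 39.9%, and Kdelr3 32.5%, 31.7%, 31.1% and 40.9%, in PBS vehicle, PBS NVP, Bleo vehicle and Bleo NVP. The level of Kdelr3 followed the library sets, and its share is not given by set.

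**Figure D3:**
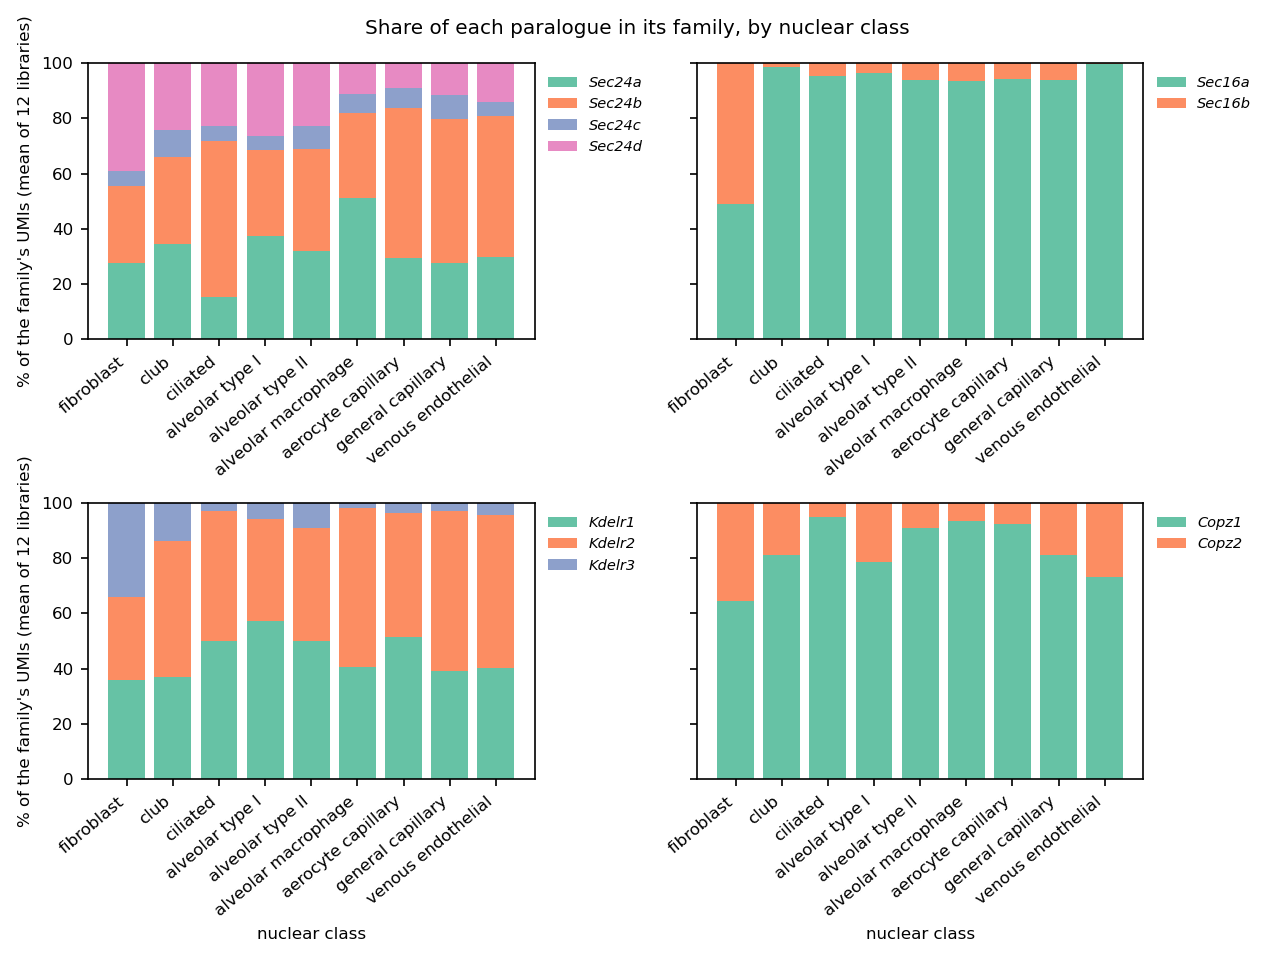
Stacked bars give each paralogue's percent of its family's UMIs (y axis, mean of 12 libraries) in 9 nuclear classes (x axis), for the Sec24, Sec16, KDEL receptor and coatomer zeta families. Fibroblasts have the largest share of Sec24d, Sec16b, Kdelr3 and Copz2.

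Fibroblasts themselves were not uniform. In the 7 fibroblast states with at least 20 nuclei in 5 or more libraries, the summed level of the 40 members was 3049 UPM in adventitial fibroblast-like nuclei, 2603 in fibrotic fibroblast-like nuclei, 2261 in peribronchial fibroblast-like nuclei and 2161 to 2543 in the 4 unnamed states, of which the lowest was led by endothelial genes such as Pecam1 and Flt1. Sec24d ranged from 149 ± 42.6 UPM in an unnamed state led by mitochondrial genes (12 libraries) to 289 ± 83.6 in peribronchial (10 libraries) and 369 ± 93.2 in adventitial fibroblast-like nuclei (5 libraries). Mia3 was at 122 ± 40.5 in adventitial fibroblast-like nuclei and 62.4 ± 16.9 in the most numerous state. Arf4 was at 186 ± 51.4 in fibrotic fibroblast-like nuclei and 139.8 ± 49.4 in the most numerous state. States were clustered from the same nuclei and rest on different libraries, so these values carry no test. The groups also drew on the states in different shares: the most numerous state held 26.7% of the Bleo vehicle fibroblasts and 46.3% to 47.5% in the other groups, the fibrotic fibroblast-like state 12.4% against 5.44% to 7.004%, and the states found in fewer than 5 libraries 8.904% against 1.65% to 2.04%. Among the states found in fewer than 5 libraries were some led by epithelial genes such as Lamp3 and Rtkn2, by macrophage genes such as Mrc1 or by haemoglobin genes. Their nuclei stayed in the fibroblast sums. The shares are of pooled nuclei, without a test, and the part of the states in the group comparisons of fibroblast sums was not tested.

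In fibroblasts no member passed the test between groups. Of the 40 members 39 were tested, and Sec31b stayed below the filter on low counts. With edgeR's quasi-likelihood test on sums per library and an adjusted p under 0.05, 0 members were called between Bleo vehicle and PBS vehicle, where 4.05% of 10515 genes were, and 2 passed at an unadjusted p under 0.05 (18.2% of genes). DESeq2 called 0, with 1 at an unadjusted p under 0.05. Between Bleo NVP and Bleo vehicle edgeR called 0 members against 7.26% of genes, with 3 at an unadjusted p under 0.05 (23.3% of genes), and DESeq2 called 0, with 1 unadjusted. Between PBS NVP and PBS vehicle edgeR called 0 members and 0% of genes, with 0 unadjusted (0.466% of genes), and between Bleo NVP and PBS NVP 0 members and 0% of genes, with 0 unadjusted (2.96% of genes), and DESeq2 called 0 members, with 0 unadjusted, in both. For the interaction, which asks whether the inhibitor's effect differs between bleomycin and PBS, edgeR and DESeq2 called 0 members with 0 unadjusted, and edgeR called 0.276% of genes (13.8% unadjusted). With the library set in the fit of 9 libraries, edgeR called 0 members, with 0 unadjusted, in the comparisons of PBS NVP with PBS vehicle and of Bleo NVP with PBS NVP, where it called 2 and 3 of 9945 genes.

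The fitted changes were all under 2-fold in the comparisons that follow. Between Bleo vehicle and PBS vehicle 19 members were higher and 20 lower, with a median log2 change of -0.0008 (all genes -0.01) and a median size of 0.15 (all genes 0.28). Between Bleo NVP and Bleo vehicle 17 were higher and 22 lower, with a median of -0.07 (all genes -0.02), a median size of 0.20 (all genes 0.35) and a range of -0.63 to 0.52. The median member had a 95% interval of 0.48 (Bleo vehicle against PBS vehicle) or 0.49 (Bleo NVP against Bleo vehicle) to either side on the log2 scale. The interval lay within a 2-fold change in either direction for 34 and 29 of the 39 members in these comparisons, and within 1.5-fold for 17 and 15. Values of the 2 groups did not overlap for 2 members between Bleo vehicle and PBS vehicle (20.5% of genes), for 7 between Bleo NVP and Bleo vehicle (29.9% of genes), for 3 between PBS NVP and PBS vehicle (3.98% of genes) and for 3 between Bleo NVP and PBS NVP (10.5% of genes). Comparisons that share a group are not independent of each other.

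**Figure D4:**
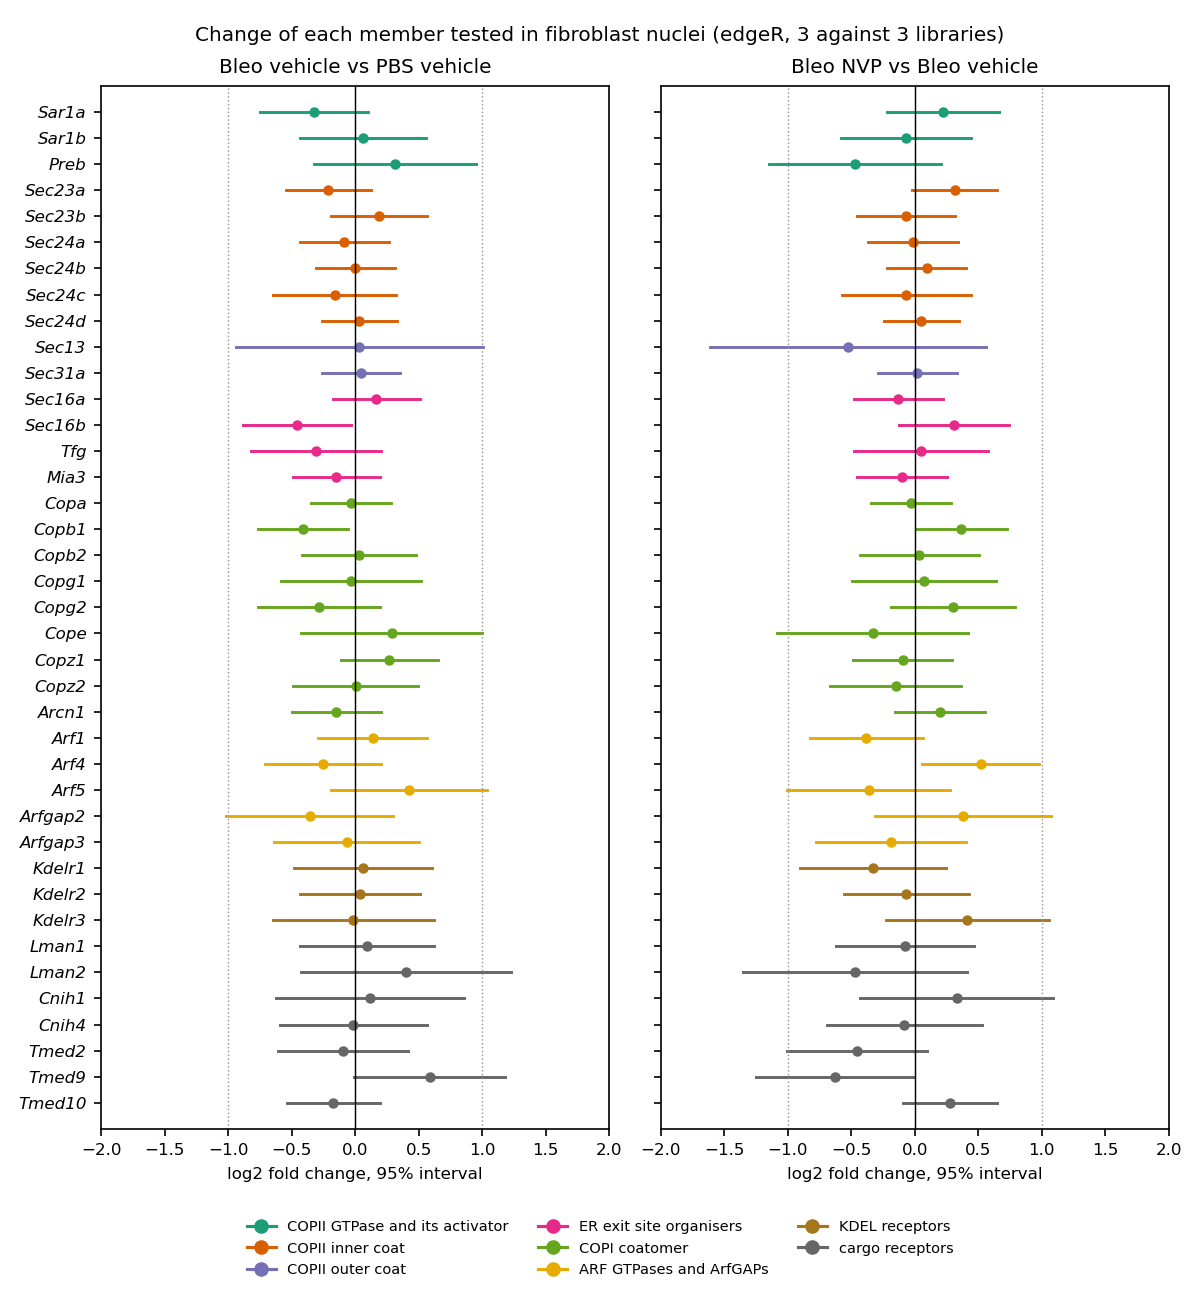
Points are log2 fold changes of 39 members in fibroblast nuclei and lines their 95% intervals (x axis), for Bleo vehicle against PBS vehicle (left) and Bleo NVP against Bleo vehicle (right), coloured by role. Dotted lines mark 2-fold changes. Changes run from -0.46 to 0.59 on the left and from -0.63 to 0.52 on the right, and none passed the adjusted test.

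Of the members, 9 are also on the study's own list of cargo and transport genes, which holds further genes not described here, and among them Sec23a and Sec24d are COPII genes. Sec23a had 106, 118 and 122.6 CPM in PBS vehicle, 111, 122 and 139.6 CPM in PBS NVP, 108, 82.4 and 109 CPM in Bleo vehicle and 130.5, 121 and 121 CPM in Bleo NVP. Every Bleo NVP library lay above every Bleo vehicle library, with a log2 change of 0.31 (SE 0.16, 95% interval -0.02 to 0.65, adjusted p = 0.248) in edgeR, while Bleo NVP overlapped both PBS groups. Between Bleo vehicle and PBS vehicle Sec23a had a log2 change of -0.21 (SE 0.16, 95% interval -0.55 to 0.12, adjusted p = 0.522). Sec24d had 215, 188 and 184 CPM in PBS vehicle, 212, 200.3 and 181 CPM in PBS NVP, 197, 191 and 212 CPM in Bleo vehicle and 212, 219 and 193 CPM in Bleo NVP. The 4 groups overlapped throughout, and the change between Bleo NVP and Bleo vehicle was 0.05 on the log2 scale (SE 0.14, 95% interval -0.24 to 0.35, adjusted p = 0.865), the narrowest interval of the 9. The COPII inner coat as a whole, 6 of 6 tested, had a median log2 change of 0.02 between Bleo NVP and Bleo vehicle and -0.04 between Bleo vehicle and PBS vehicle. The GTPase genes Sar1a and Sar1b with Preb had medians of -0.07 and 0.06, and Sec13 and Sec31a of the outer coat -0.25 and 0.04, with Sec13 at only 6.35 CPM over the 12 libraries. In none of these groups did edgeR call a member, and none had an unadjusted p under 0.05.

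Of the exit site organisers, Sec16b had the lowest unadjusted p with bleomycin, and it is described because of that value. It had 64.2, 59.99 and 86.7 CPM in PBS vehicle, 69.3, 56.8 and 81.2 CPM in PBS NVP, 51.9, 50.9 and 50.05 CPM in Bleo vehicle and 66.3, 50.1 and 73.5 CPM in Bleo NVP. Bleo vehicle lay below both PBS groups without overlap, with a log2 change of -0.46 (SE 0.20, 95% interval -0.88 to -0.03, adjusted p = 0.232) in edgeR against PBS vehicle (unadjusted p under 0.05), and between Bleo NVP and Bleo vehicle the log2 change was 0.31 (SE 0.20, adjusted p = 0.389). Its values in the PBS and Bleo NVP libraries also followed the sets, with 86.7, 81.2, 66.3 and 73.5 CPM in set C. Mia3, the procollagen loader, had 86.2, 62.9 and 71.3 CPM in PBS vehicle, 83.3, 68.1 and 67.98 CPM in PBS NVP, 66.6, 63.8 and 69.4 CPM in Bleo vehicle and 63.2, 60.4 and 63.1 CPM in Bleo NVP. Bleo NVP lay below both Bleo vehicle and PBS NVP without overlap, with a log2 change of -0.24 against PBS NVP (SE 0.16, adjusted p = 0.9998) and of -0.10 against Bleo vehicle (SE 0.17, adjusted p = 0.764), and neither passed. Sec16a and Tfg had changes of -0.13 and 0.05 between Bleo NVP and Bleo vehicle.

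In the COPI coatomer, Copb1 was the only member with an unadjusted p under 0.05, and like Mia3, Arf1, Arfgap2, Kdelr3, Tmed2, Tmed9 and Tmed10 it is described after its values were seen. This beta subunit had 99.3, 103 and 84.7 CPM in PBS vehicle, 95.3, 103 and 103 CPM in PBS NVP, 63.2, 64.1 and 85.9 CPM in Bleo vehicle and 81.6, 105 and 91.01 CPM in Bleo NVP. The values of Bleo vehicle 1 and 2 were the lowest of the 12, and Bleo vehicle 3 lay within the range of the other groups. edgeR gave a log2 change of -0.41 (SE 0.17, 95% interval -0.77 to -0.06, adjusted p = 0.192) between Bleo vehicle and PBS vehicle and a log2 change of 0.37 (SE 0.17, 95% interval 0.01 to 0.73, adjusted p = 0.204) between Bleo NVP and Bleo vehicle. Copb1 is not on the study's list and was not called. Nor were Copb2, Copg1 and Arcn1, the coatomer members that are on the list. Copb2 had 28.7, 23.6 and 24.4 CPM in PBS vehicle, 29.7, 28.4 and 22.9 CPM in PBS NVP, 33.8, 21.96 and 25.7 CPM in Bleo vehicle and 26.5, 25.3 and 29.3 CPM in Bleo NVP, and its log2 change between Bleo NVP and Bleo vehicle was 0.04 (SE 0.22, 95% interval -0.43 to 0.50, adjusted p = 0.947). Copg1, the gamma subunit, had 31.3, 29.99 and 31.5 CPM in PBS vehicle, 27.5, 27.2 and 27.7 CPM in PBS NVP, 50.8, 25.01 and 22.03 CPM in Bleo vehicle and 29.6, 34.6 and 30.6 CPM in Bleo NVP. Bleo vehicle 1 was the highest of the 12 libraries, and the log2 change of 0.07 (SE 0.27, adjusted p = 0.909) between Bleo NVP and Bleo vehicle became 0.42 without that library (adjusted p = 0.245). Every PBS NVP library lay below every PBS vehicle and every Bleo NVP library, with a log2 change against PBS vehicle of -0.17 (SE 0.26, adjusted p = 0.9999). Arcn1, the delta subunit, had 127, 97.9 and 134 CPM in PBS vehicle, 136, 109 and 119 CPM in PBS NVP, 113, 98.2 and 113 CPM in Bleo vehicle and 135, 108 and 130.0 CPM in Bleo NVP, with overlapping groups and a log2 change of 0.20 (SE 0.17, 95% interval -0.16 to 0.55, adjusted p = 0.518). Over the 9 coatomer members the median change was 0.04 between Bleo NVP and Bleo vehicle and -0.03 between Bleo vehicle and PBS vehicle.

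Arf4 had the smallest adjusted p of the members between Bleo NVP and Bleo vehicle. It lies at chr14:26638074-26665084 of GRCm38 and had 139.9, 129 and 204 CPM in PBS vehicle, 139, 146 and 197 CPM in PBS NVP, 148, 113 and 135 CPM in Bleo vehicle and 189, 149 and 229 CPM in Bleo NVP. Bleo NVP lay above Bleo vehicle without overlap, with a log2 change of 0.52 (SE 0.22, 95% interval 0.06 to 0.98, adjusted p = 0.163), while Bleo NVP overlapped PBS vehicle and PBS NVP. Between Bleo vehicle and PBS vehicle the log2 change was -0.26 (SE 0.21, adjusted p = 0.585), and for the interaction 0.49 (SE 0.30, adjusted p = 0.489). The Bleo NVP libraries of set C were the higher members of their group, as set C was in the PBS groups. Without PBS vehicle 3, which belongs to set C, the change between Bleo vehicle and PBS vehicle was -0.03 (adjusted p = 0.969). Arf1, the partner GTPase at the Golgi, had 35.97, 40.3 and 51.4 CPM in PBS vehicle, 38.9, 32.8 and 38.5 CPM in PBS NVP, 58.7, 42.4 and 41.2 CPM in Bleo vehicle and 39.8, 30.7 and 37.1 CPM in Bleo NVP, with Bleo NVP below Bleo vehicle without overlap and a log2 change of -0.38 (SE 0.21, adjusted p = 0.295). Arfgap2 also separated these groups (8.43 ± 0.486 CPM in Bleo vehicle and 10.9 ± 2.03 CPM in Bleo NVP, SD, n = 3), at low counts and with an adjusted p of 0.519 in edgeR.

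None of the receptors was called. Kdelr2 had 23.4, 16.7 and 20.5 CPM in PBS vehicle, 21.2, 19.9 and 22.3 CPM in PBS NVP, 25.95, 18.6 and 20.1 CPM in Bleo vehicle and 17.3, 21.9 and 20.2 CPM in Bleo NVP, with a log2 change of -0.07 between Bleo NVP and Bleo vehicle (SE 0.23, 95% interval -0.56 to 0.43, adjusted p = 0.973). The 4 groups overlapped. Kdelr3, at 21.5 ± 3.81, 22.3 ± 5.18, 22.9 ± 10.6 and 28.4 ± 4.85 CPM in PBS vehicle, PBS NVP, Bleo vehicle and Bleo NVP (SD, n = 3), was highest on average in Bleo NVP, with a log2 change of 0.41 against Bleo vehicle (SE 0.30, adjusted p = 0.449). Its values followed the library sets. Every library of set C (25.7, 28.3, 30.6 and 31.9 CPM, the last 2 of them Bleo NVP) lay above every library of sets A and B (18.2 to 22.9 CPM). The highest single value was that of Bleo vehicle 1, at 35.0 CPM. Lman1 (ERGIC-53), a lectin that carries glycoproteins out of the ER, had 32.99, 32.9 and 22.5 CPM in PBS vehicle, 32.3, 35.3 and 17.4 CPM in PBS NVP, 33.8, 32.03 and 30.5 CPM in Bleo vehicle and 28.5, 33.6 and 27.95 CPM in Bleo NVP. Its lowest values were those of the set C libraries of the PBS groups, and the log2 change between Bleo NVP and Bleo vehicle was -0.08 (SE 0.25, 95% interval -0.62 to 0.47, adjusted p = 0.893). Cnih1 had 10.4, 5.901 and 10.9 CPM in PBS vehicle, 11.2, 6.08 and 10.8 CPM in PBS NVP, 9.03, 8.54 and 11.5 CPM in Bleo vehicle and 17.3, 10.2 and 11.1 CPM in Bleo NVP, overlapping in all groups, with a log2 change of 0.33 (SE 0.35, 95% interval -0.43 to 1.09, adjusted p = 0.619), the widest interval of the 9.

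Tmed9, a p24 cargo receptor, had the largest fitted change of the 39 members between Bleo NVP and Bleo vehicle and between Bleo vehicle and PBS vehicle, and it did not pass. It had 22.4, 15.7 and 12.2 CPM in PBS vehicle, 25.03, 17.03 and 16.8 CPM in PBS NVP, 31.6, 26.5 and 22.1 CPM in Bleo vehicle and 12.2, 18.5 and 18.9 CPM in Bleo NVP. Bleo vehicle lay above Bleo NVP without overlap and its lowest value lay just under the highest of PBS vehicle, with a log2 change of -0.63 (SE 0.29, 95% interval -1.25 to -0.0036, adjusted p = 0.2101) between Bleo NVP and Bleo vehicle and a log2 change of 0.59 (SE 0.28, 95% interval -0.01 to 1.18, adjusted p = 0.28001) between Bleo vehicle and PBS vehicle. For the interaction the log2 change was -0.84 (SE 0.40, adjusted p = 0.374). Tmed10, another p24 protein, went the other way, with Bleo vehicle at 54.2, 72.3 and 66.1 CPM and Bleo NVP at 81.6, 79.4 and 75.4 CPM, no overlap, and a log2 change of 0.28 (SE 0.17, adjusted p = 0.361). Tmed2 had 14.7, 25.3 and 28.02 CPM in Bleo vehicle, 14.3, 19.5 and 17.6 CPM in Bleo NVP and 25.5, 19.9 and 19.9 CPM in PBS NVP, with a log2 change of -0.34 between Bleo NVP and PBS NVP (SE 0.26, adjusted p = 0.9998).

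**Figure D5:**
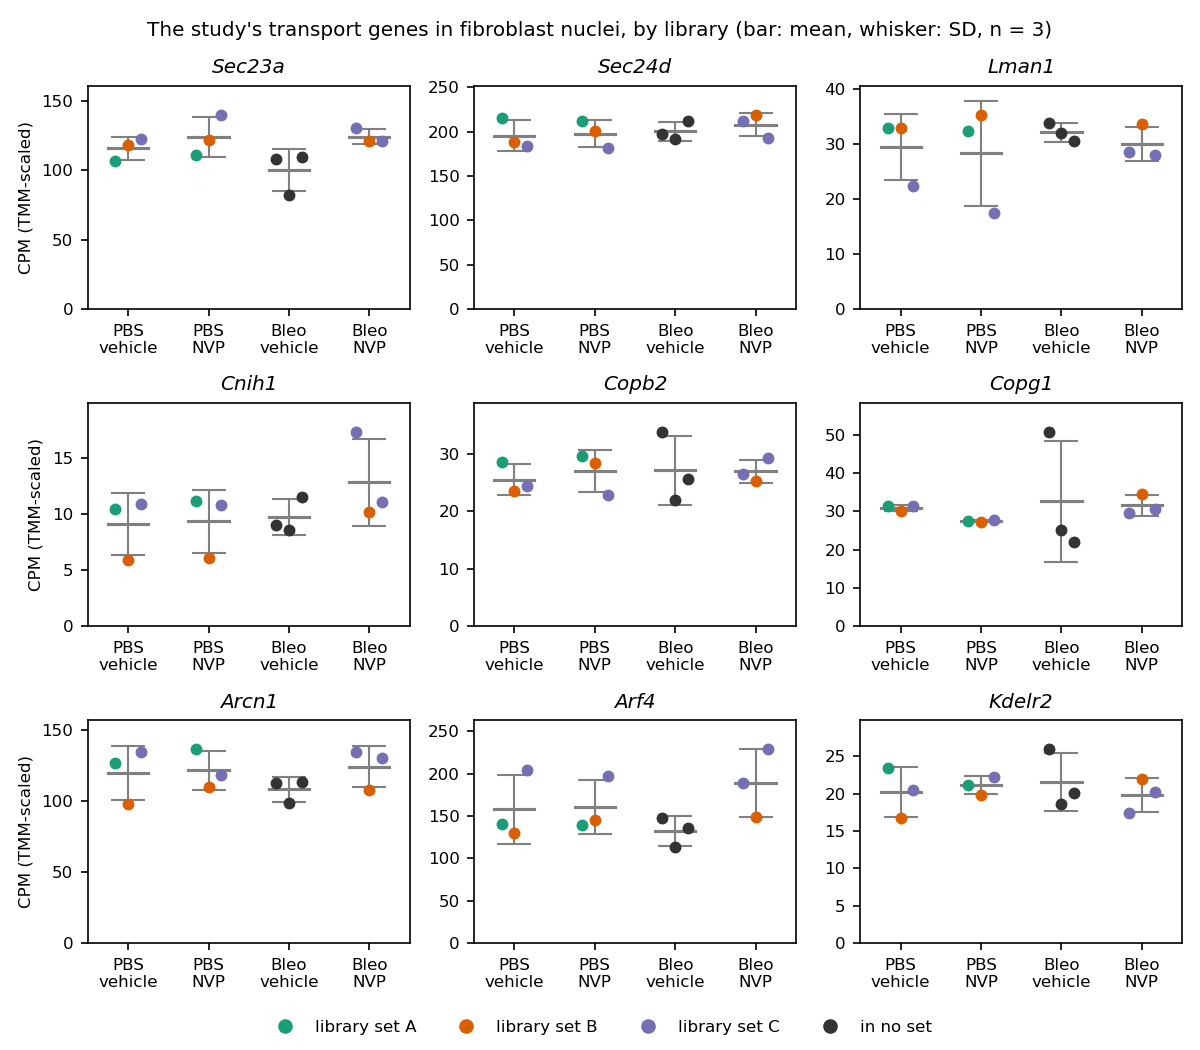
Each panel shows 1 of the 9 members on the study's list of cargo and transport genes in fibroblast nuclei, with CPM on the y axis and the 4 groups on the x axis. Points are libraries coloured by library set, bars the mean and whiskers the SD (n = 3). In no panel do all Bleo groups separate from all PBS groups, and Arf4 is high in the 4 libraries of set C.

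As a group, the 9 members on the study's list had a median log2 change of 0.07 between Bleo NVP and Bleo vehicle and 0.03 between Bleo vehicle and PBS vehicle (all genes -0.02 and -0.01), and edgeR called 0 of 9 in any comparison, with 1 (Arf4, Bleo NVP against Bleo vehicle) at an unadjusted p under 0.05, and DESeq2 called 0, with 1 unadjusted. Of 37 ER-to-Golgi tethers, SNAREs and adaptors 33 were tested, and edgeR called 0 between Bleo NVP and Bleo vehicle (4 unadjusted, DESeq2 0) and 0 between Bleo vehicle and PBS vehicle (2 unadjusted, DESeq2 0). Of 25 ER chaperone and unfolded protein response genes 24 were tested, and edgeR called 0 in these comparisons (3 and 1 unadjusted, DESeq2 0), with a median log2 change of -0.12 between Bleo NVP and Bleo vehicle. Of 19 collagen, elastin and other matrix genes, all tested, edgeR called 1 higher in Bleo vehicle than in PBS vehicle and 2 lower in Bleo NVP than in Bleo vehicle, with median log2 changes of 0.52 and -0.57, and DESeq2 called 3 and 5. Over all genes edgeR called 4.05% and 7.26% in these comparisons, so that its 1 and 2 of 19 are near the background. At an unadjusted p under 0.05 edgeR had 5 and 7 of the 19, against 18.2% and 23.3% of genes. The share of all genes called by DESeq2 is not given here. Eln, the gene of elastin, had 767, 503 and 223 CPM in PBS vehicle, 716, 637 and 259 CPM in PBS NVP, 2744, 1052 and 1292 CPM in Bleo vehicle and 272, 436 and 369 CPM in Bleo NVP. It fell by 2.23 on the log2 scale between Bleo vehicle and Bleo NVP (SE 0.49, adjusted p = 0.02798), without overlap. Lox, an enzyme that crosslinks collagen and elastin, fell by 1.01 there (SE 0.28, adjusted p = 0.0452), and Col12a1 rose by 1.86 with bleomycin (SE 0.46, adjusted p = 0.0482).

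Other measures moved with the same comparisons. Of 23 marker lists, of other cell classes and of cycling cells, summed in fibroblast nuclei, 14 were higher in Bleo vehicle than in Bleo NVP without overlap, 11 were higher than in PBS vehicle, and 1 was higher in Bleo NVP than in Bleo vehicle. The 8 alveolar type II markers, all detected, gave 320.2 to 1248 UPM in Bleo vehicle, 105 to 141 in Bleo NVP, 99.2 to 294 in PBS vehicle and 102 to 225 in PBS NVP. The 8 markers of interstitial macrophages and monocytes gave 27.04 to 91.7 in Bleo vehicle, 4.53 to 8.004 in Bleo NVP, 2.296 to 7.87 in PBS vehicle and 3.48 to 10.5 in PBS NVP. Of 86 ribosomal protein genes tested in fibroblasts edgeR called 28 higher and 1 lower in Bleo vehicle than in PBS vehicle, and 1 higher and 54 lower in Bleo NVP than in Bleo vehicle, and all 13 mitochondrial genes were called higher in the first comparison and lower in the second. The part of these in the member values was not tested. Gene span moved with the changes as well, in comparisons with and without Bleo vehicle. Members shorter than 20 kb had a median log2 change of -0.33 between Bleo NVP and Bleo vehicle (4 higher, 10 lower, all genes of that span -0.15), and members over 40 kb 0.04 (6 higher, 4 lower, all genes 0.08). Across the 39 members, which share libraries, the correlation of this change with span was 0.39 for both Pearson's r and Spearman's rho, against 0.14 and 0.16 across 10437 genes. Between Bleo NVP and PBS NVP these were 0.37 and 0.49 (all genes 0.35 and 0.38). Between PBS NVP and PBS vehicle they were -0.32 and -0.28 (all genes -0.20 and -0.22). Between Bleo vehicle and PBS vehicle they were -0.37 and -0.33 (all genes -0.03 and -0.03).

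No member was called in the other classes either. The 8 other classes with enough nuclei gave 216 member tests per comparison. edgeR called 0 of them between Bleo vehicle and PBS vehicle (3.16% of gene tests in the same classes), with 10 at an unadjusted p under 0.05 (15.4%), and 0 between Bleo NVP and Bleo vehicle (3.83%), with 14 unadjusted (18.1%), and DESeq2 called 0 in both. In the comparisons of PBS NVP with PBS vehicle and of Bleo NVP with PBS NVP edgeR called 0 members and 0% of genes, with 2 (1.18% of genes) and 7 (3.30% of genes) unadjusted, and DESeq2 called 0. Sec24d in alveolar type I cells had the smallest adjusted p. It had 91.2, 86.9 and 116 CPM in Bleo vehicle, 138, 138 and 134 CPM in Bleo NVP and 117, 129.6 and 128 CPM in PBS vehicle, and the log2 change between Bleo NVP and Bleo vehicle was 0.46 (SE 0.15, adjusted p = 0.08099) in edgeR, with no overlap. Arf4 in club cells had 164, 151 and 172 CPM in Bleo vehicle and 238, 209.5 and 423 CPM in Bleo NVP, with a log2 change of 0.81 (SE 0.26, adjusted p = 0.102), in the same direction as in fibroblasts. Arfgap3, a COPI-linked ArfGAP, had 38.5, 28.1 and 24.2 CPM in Bleo vehicle and 19.3, 19.1 and 11.7 CPM in PBS vehicle in alveolar type I cells, with a log2 change of 0.80 (SE 0.27, adjusted p = 0.118), and of -0.72 (SE 0.28, adjusted p = 0.153) between Bleo NVP and Bleo vehicle. The next smallest, all between Bleo NVP and Bleo vehicle, were Copz1 in alveolar type II cells at 0.59 (SE 0.22, adjusted p = 0.1297), Copb1 in alveolar macrophages at 0.69 (SE 0.27, adjusted p = 0.154), Preb in alveolar macrophages at -1.77 (SE 0.73, adjusted p = 0.156) and Copg2 in alveolar type II cells at 0.48 (SE 0.19, adjusted p = 0.163). Preb had 90.3, 32.8 and 21.3 CPM in Bleo vehicle and 6.46, 24.2 and 3.29 CPM in Bleo NVP there. The Bleo NVP libraries of this class held 154639, 375832 and 299283 UMIs, so that these values rest on few counts.

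These counts turned on 1 library. Without Bleo vehicle 3, the deepest library in fibroblasts, edgeR called 5 of 222 member tests in the other classes between Bleo vehicle and PBS vehicle (11.0% of gene tests) and 6 of 222 between Bleo NVP and Bleo vehicle (11.5%), whereas in fibroblasts it still called 0. Between Bleo vehicle and PBS vehicle, Sec24b in ciliated cells had a log2 change of -0.98 (adjusted p = 0.00805), Arf5 in ciliated cells 1.99 (adjusted p = 0.0235), Copg2 in alveolar type II cells -0.74 (adjusted p = 0.0138), Mia3 in club cells -1.28 (adjusted p = 0.0436) and Preb in general capillary cells 1.78 (adjusted p = 0.0317). Between Bleo NVP and Bleo vehicle, Preb, the SAR1 exchange factor, had -2.33 (adjusted p = 0.0161) in general capillary cells and -2.18 (adjusted p = 0.0225) in alveolar macrophages, Copg2 had 0.76 (adjusted p = 0.0129) in alveolar type II cells, Sec24b 0.86 (adjusted p = 0.0216) in ciliated cells, Copb1 0.99 (adjusted p = 0.0306) in alveolar macrophages and Sec24d 0.61 (adjusted p = 0.0334) in alveolar type I cells. In the fit of 12 libraries Preb in alveolar macrophages had 90.3 and 32.8 CPM in Bleo vehicle 1 and 2. It had 6.46, 24.2 and 3.29 CPM in Bleo NVP, which rest on few counts. The remaining Bleo vehicle libraries share a batch number that no other group has, so that this batch and the treatment cannot be told apart.

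In all nuclei together 40 of 40 members were among 14442 genes tested. edgeR called 0 between Bleo vehicle and PBS vehicle (2.44% of genes), with 4 at an unadjusted p under 0.05 (18.6%), and 0 between Bleo NVP and Bleo vehicle (5.51%), with 4 unadjusted (25.6%), and DESeq2 called 0 in both, with 5 and 4 unadjusted. Fewer cells of a type and less RNA per cell cannot be told apart in these sums. Copb1 had 71.96, 82.1 and 73.3 CPM in PBS vehicle, 70.3, 75.97 and 76.3 CPM in PBS NVP, 44.8, 55.9 and 68.9 CPM in Bleo vehicle and 74.99, 80.9 and 69.98 CPM in Bleo NVP. Bleo vehicle lay below the other groups without overlap, with a log2 change of -0.41 (SE 0.15, adjusted p = 0.1604) against PBS vehicle and of 0.40 (SE 0.15, adjusted p = 0.119) between Bleo NVP and Bleo vehicle in edgeR. Tmed9 had 18.995, 17.3 and 12.9 CPM in PBS vehicle and 27.1, 23.3 and 21.3 CPM in Bleo vehicle, with a log2 change of 0.52 (SE 0.18, adjusted p = 0.147), and Sec24d 105, 109 and 118 CPM in Bleo vehicle and 142, 137 and 130.2 CPM in Bleo NVP, with 0.30 (SE 0.11, adjusted p = 0.113). Without Bleo vehicle 3 edgeR called 1 member between Bleo vehicle and PBS vehicle (8.99% of genes), Copb1 at -0.59 (adjusted p = 0.0285), and 2 between Bleo NVP and Bleo vehicle (15.2% of genes), Copb1 at 0.58 (adjusted p = 0.0213) and Preb at -0.98 (adjusted p = 0.0333).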

How the data were processed

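The deposited values are raw UMI counts per gene and nucleus, which the authors made with Cell Ranger (version 7.0 in the submitters' processing notes) on mm10 and analysed with Seurat (version 4.4.1 there). Nuclei with 200 to 6000 genes and at most 5% mitochondrial UMIs were kept, predicted doublets were removed, and nuclei were clustered (scanpy 1.11.5) after Harmony and named from fixed markers. Counts were summed per class and library, without rounding or imputation. Groups were compared with edgeR 4.0.16 (R 4.3.3): filterByExpr, TMM scaling, a robust quasi-likelihood fit of 12 libraries, two-sided tests, Benjamini-Hochberg adjustment over all genes tested in a class, calls at an adjusted p under 0.05. Intervals are 95% Wald intervals. DESeq2 1.42.0 was an alternative, with other settings given in the closing section. The fit was tested on simulated data, which held no library sets, and no result here rests on that test. Fibroblast sums held 883774 to 9024187 UMIs. In the main fit, intervals and p-values rest on a spread estimated over all 12 libraries around the means of their groups. That spread includes the differences between library sets.

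Replicate numbers of the labels paired PBS NVP with PBS vehicle (correlations of deviations 0.80, 0.62 and 0.68). No other groups had a correlation over 0.1 for every number, and Bleo NVP with PBS NVP had -0.10, 0.50 and 0.41. Named in full are members called and the 9 that are on the study's list. Also named are the member of each role with the widest range over classes, paralogue shares, the 8 smallest adjusted p in other classes and, of other lists, called genes. Other names were chosen after their values were seen. The members and lists were chosen with earlier results of these data known.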

Additional observations from a re-analysis of the deposited data

How the results depend on the processing

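Of the counts of members called in fibroblasts under the alternatives, 108 kept the count of 0 in edgeR or DESeq2, and leaving out any library gave 0 to 0. With the replicate number as a block, edgeR called 1 member between Bleo NVP and Bleo vehicle, Arf4 at 0.51 (adjusted p = 0.0384), where it called 13.9% of genes, and in the other classes 1 between Bleo vehicle and PBS vehicle (Arfgap3 in alveolar type I cells, 5.12% of gene tests) and 2 between Bleo NVP and Bleo vehicle (Sec24d in alveolar type I cells, Arf4 in club cells, 6.39% of gene tests). These groups share only a number, with correlations of 0.02 to 0.18, and the block changed no other call, including those of PBS NVP against PBS vehicle, where the numbers pair the libraries. In the other classes, between Bleo NVP and Bleo vehicle, 1 member was called without the filter on low counts (Preb in alveolar macrophages, 3.15% of gene tests) and 2 with doublets kept (Copz1 in alveolar type II cells, Arf4 in club cells, 7.32% of gene tests). Leaving out 1 library gave 0 to 5 calls in the other classes between Bleo vehicle and PBS vehicle and 0 to 6 between Bleo NVP and Bleo vehicle, and in all nuclei 0 to 1 and 0 to 2, the highest each time without Bleo vehicle 3. The cause was not tested. The library set as a block, added after seeing the data, gave 0 calls in fibroblasts, in the other classes and in all nuclei for PBS NVP against PBS vehicle and for Bleo NVP against PBS NVP.

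The median change of the members in fibroblasts lay between -0.11 and 0.02 for Bleo NVP against Bleo vehicle and between -0.07 and 0.08 for Bleo vehicle against PBS vehicle, and for the interaction it was -0.15 with stricter filters on nuclei. Of the log2 changes of named members, 1297 moved by less than the spread between replicates, 10 moved by more and 1 (Arf4, replicate block) passed the threshold.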
